A study of Sus scrofa with 19 samples.

Results

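The class *Bacilli* was followed through fecal 16S rRNA gene profiles of Duroc boars, together with its genera *Streptococcus* and *Lactobacillus* and the species *Streptococcus_gallolyticus* and *Lactobacillus_ultunensis*. These 5 taxa were taken by name from the class, genus and species tables, out of 87 named taxa in the 6 tables of the series. AOS10 comprised 10 boars fed a basal diet with alginate oligosaccharides added at 10 mg/kg body weight, the short sugar chains obtained from the alginate of brown seaweed, for 9 weeks. CON comprised 9 boars on the basal diet without the supplement. Each sample came from a boar of its own, so the spread given here is between animals. By their labels the AOS10 boars were aged 24 to 33 months and the CON boars 34 to 42 months, ages that step up along the order of the samples, while the methods give about 24 months for all boars. An effect of the diet and one of the labelled age cannot be told apart. The values are percentages of all sequences of a boar. The number of sequences behind them was not worked out here, so no counting error is given. Group means were compared by exact permutation (two-sided) of boars between the groups, which allows 92378 splits, and adjustment (Benjamini-Hochberg) is over all taxa of the same table that were above 0 in at least 5 boars.

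*Bacilli* are a class of *Firmicutes* and include the lactic acid bacteria, which ferment sugars mainly to lactate and tolerate the acid they make. *Lactobacillus* is an early and long-lasting inhabitant of the pig gut, where it lines parts of the stomach and reaches the feces. *Streptococcus* is another common lactic acid bacterium of the pig gut. *Clostridia*, the largest class in these samples, are strict anaerobes that include the main butyrate producers of the colon, and some of them use the lactate that the others release. A 16S share is a share of marker gene copies and not of cells, because genomes differ in how many copies they carry.

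The deposited *Bacilli* were nearly all streptococci and lactobacilli. *Streptococcus* and *Lactobacillus* together held 95.6% to 100% of the class in AOS10 boars and 98.5% to 100% in CON boars. The order *Lactobacillales* equalled the class in all 10 AOS10 and all 9 CON boars (within 1e-09 percentage points). The families *Streptococcaceae* and *Lactobacillaceae* equalled the 2 genera in 8 of 10 AOS10 and 9 of 9 CON boars, so the 7 listed taxa below the class carry hardly more information than the 2 genera and 2 species. The remainder of the class was at most 0.461% of all sequences in AOS10, in boar 6, and at most 0.0748% in CON, in boar 3.

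In most boars one genus made up most of the class, and *Streptococcus* was the larger one more often. It exceeded *Lactobacillus* in all AOS10 boars but 3 and in all CON boars but 3. *Streptococcus* held over 90% of *Bacilli* in 4 of 10 AOS10 boars (1, 2, 3 and 8) and in 5 of 9 CON boars (1, 4, 5, 7 and 8). *Lactobacillus* was the larger genus in AOS10 boars 5, 7 and 9, with 62.4%, 85.7% and 78.0% of *Bacilli*. It was also the larger genus in CON boars 2, 9 and 10, with 96.1%, 89.8% and 97.5%. AOS10 boars 4, 5, 6, 7, 9 and 10 had *Streptococcus* at 86.4%, 37.3%, 84.2%, 12.1%, 21.8% and 75.5% of the class. In boars 4, 6 and 7 among them 1 genus thus still held 84.2% or more. CON boar 3 had 74.2% *Streptococcus*, and in the other 8 CON boars 1 genus held at least 89.8% of the class. No cut for a mixed class was set, and a difference in mixing between the groups was not tested.

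**Figure D1:**
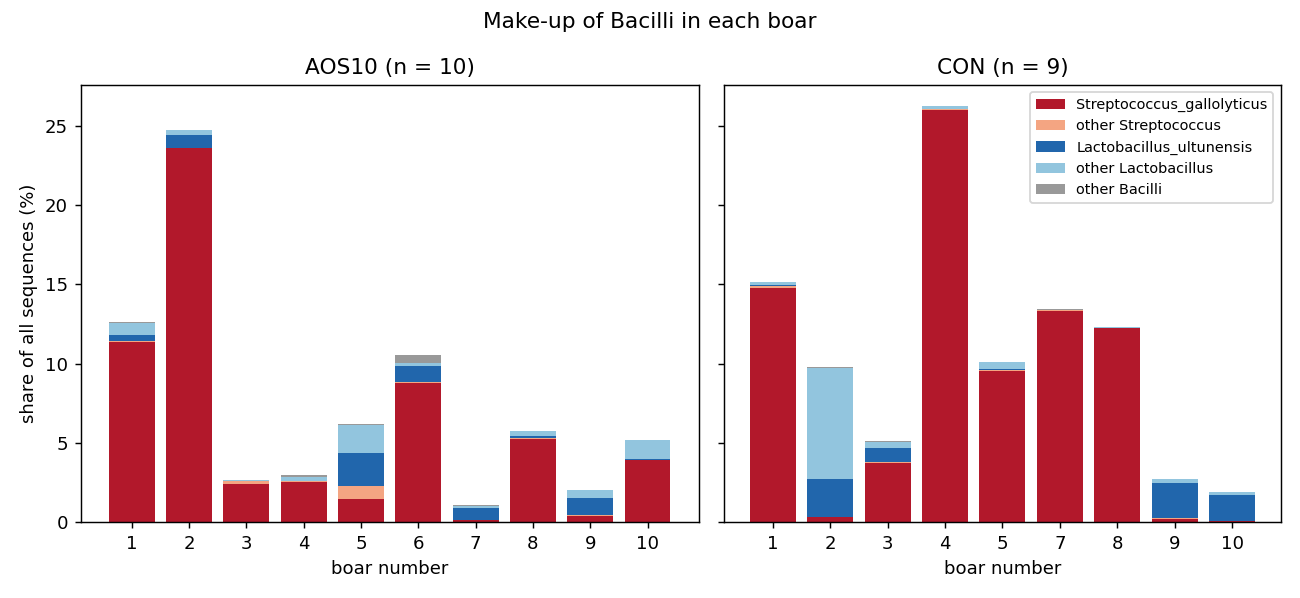
Share of all sequences (%, vertical axis) held by *Bacilli* in each boar (horizontal axis, boar number), AOS10 on the left and CON on the right, with each bar divided by species and genus. *Streptococcus_gallolyticus* fills most of the bar in 7 of 10 AOS10 and 6 of 9 CON boars, while *Lactobacillus* fills most of it in AOS10 boars 5, 7 and 9 and CON boars 2, 9 and 10.

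The class as a whole had a lower mean in AOS10, by less than the spread between boars. *Bacilli* ranged from 1.07% (boar 7) to 24.8% (boar 2) of all sequences in AOS10, with a median of 5.47%. In CON they ranged from 1.94% (boar 10) to 26.3% (boar 4), with a median of 10.1%. The 2 ranges overlapped almost completely, although the CON median was exceeded by only 3 of the 10 AOS10 boars. The means were 7.38% ± 7.14 in AOS10 and 10.8% ± 7.46 in CON (SD, n = 10 and 9), a ratio of 0.685 (exact permutation p = 0.331, adjusted p = 0.598). Of the 21 classes tested, 0% passed at an adjusted p under 0.05 and 9.52% at an unadjusted p under 0.05, and *Bacilli* were not among them. With limma 0 of the 21 classes passed after adjustment and 1 before it. Without AOS10 boar 2 the ratio was 0.506 (exact permutation p = 0.0698).

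*Streptococcus* had a lower mean in AOS10 as well, by less than the spread between boars. It lay between 0.129% (boar 7) and 23.6% (boar 2) in AOS10, with a median of 3.26%. In CON it lay between 0.0485% (boar 10) and 26.1% (boar 4), with a median of 9.59%. The highest boar thus had 183-fold the share of the lowest within AOS10, and 538-fold within CON, and the groups overlapped. The 3 CON boars dominated by *Lactobacillus* had 0.347%, 0.238% and 0.0485% *Streptococcus*, and the other 6 had at least 3.81%. The means were 6.12% ± 7.12 in AOS10 and 8.96% ± 8.78 in CON (SD, n = 10 and 9), a ratio of 0.683 (exact permutation p = 0.449, adjusted p = 0.734). On the log2 scale the estimate was close to 0 with a wide error (limma log2 fold change 0.05, standard error 1.11, adjusted p = 0.962). *Streptococcus* was the genus with the largest mean share of the 18 genera tested in both groups.

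*Lactobacillus* was the smaller genus and had no common direction. It ranged from 0.0602% (boar 3) to 3.86% (boar 5) in AOS10, with a median of 1.12%. In CON it ranged from 0.0504% (boar 7) to 9.41% (boar 2), with a median of 0.531%. The AOS10 median was thus the higher one, and 7 of the 10 AOS10 boars exceeded the CON median. The means were in the opposite order, 1.18% ± 1.06 in AOS10 and 1.78% ± 2.99 in CON (SD, n = 10 and 9), a ratio of 0.665 (exact permutation p = 0.720, adjusted p = 0.925). The CON mean rested on boar 2, and without it the ratio was 1.43. The limma log2 fold change was 0.55 (standard error 0.87, adjusted p = 0.836). Of the 18 genera, 0% passed at an adjusted p under 0.05 and 5.56% at an unadjusted p under 0.05, and neither genus of the class was among them. With limma 0 of the 18 genera passed at an adjusted and 0 at an unadjusted p under 0.05.

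**Figure D2:**
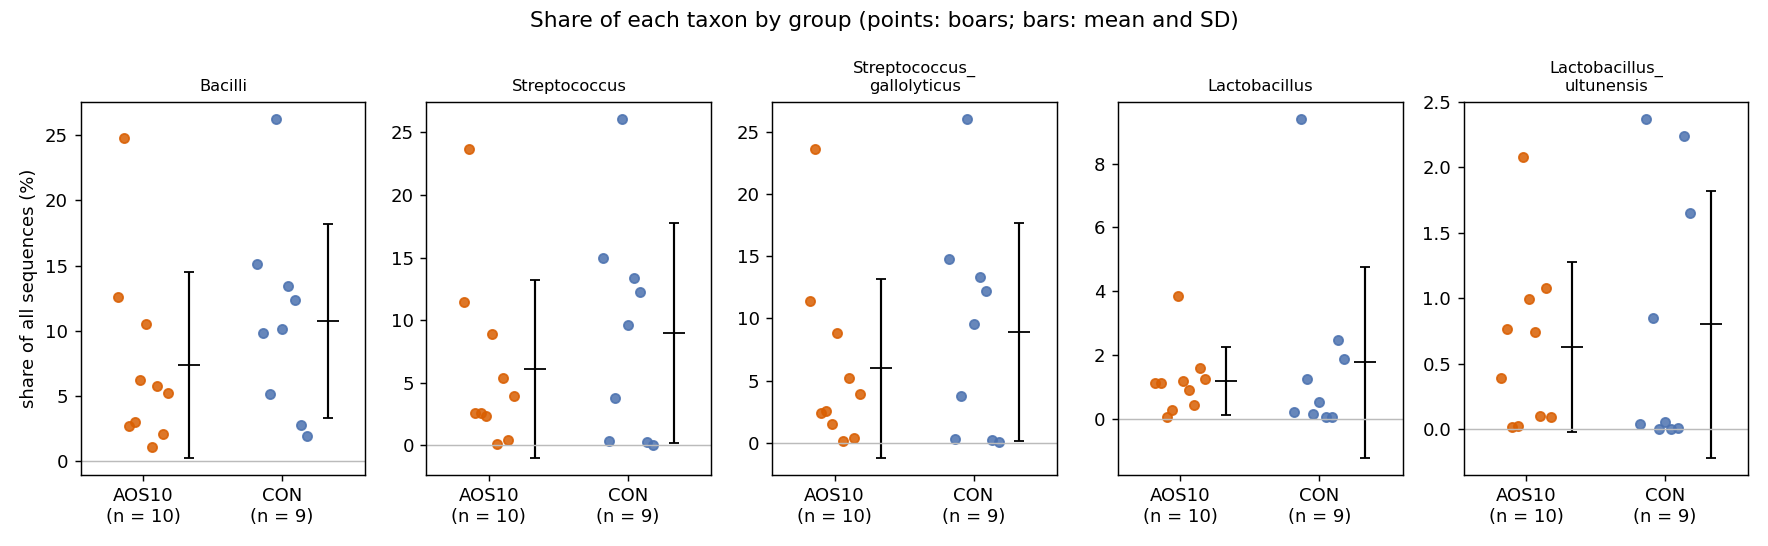
Share of all sequences (%, vertical axis, a scale for each panel) of the class, the 2 genera and the 2 species, with AOS10 boars on the left and CON boars on the right of each panel. Points are boars, and the horizontal mark with its bar is the mean with 1 SD, whose lower end can lie below 0. The groups overlap in every panel, and single boars such as CON boar 2 at 9.41% *Lactobacillus* pull the means.

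Nearly all listed streptococci carried 1 species name. *Streptococcus_gallolyticus*, a gut streptococcus that ferments plant carbohydrates and can cause endocarditis in people, held 5.98% ± 7.17 of all sequences in AOS10 and 8.92% ± 8.75 in CON (SD, n = 10 and 9; ratio 0.670, exact permutation p = 0.433, adjusted p = 0.703). Its median was 3.23% in AOS10 and 9.56% in CON. As a part of its genus it made up 64.4% (boar 5) to 99.8% (boar 2) in AOS10, with a median of 98.7%. In CON it made up 97.4% (boar 2) to 100% (boar 10), with a median of 99.7%. AOS10 boars 5, 9 and 3 were thus the lowest, at 64.4%, 83.4% and 91.6%, and the CON boars were all close to 100%. Streptococci outside this species reached 0.820% of all sequences in AOS10 boar 5, against at most 0.136% in any CON boar. The mean part was 93.0% ± 11.3 in AOS10 and 99.2% ± 0.856 in CON (SD, n = 10 and 9), a difference of -6.22 percentage points (exact permutation p = 0.0764, adjusted p = 0.306 over the 4 parts compared within the class and its genera). Without AOS10 boar 5 the difference was -3.04 percentage points. AOS10 boars 5, 9 and 3 had 2.31%, 0.446% and 2.603% *Streptococcus* in all. AOS10 boars 1, 2, 6, 8 and 10 had 3.91% or more, with parts of 98.1% or more. AOS10 boars 7 and 4 had 0.129% and 2.58%, with parts of 95% and 99.4%, and CON boars 2, 9 and 10 had 0.347% or less, with parts of 97.4% or more. The parts of the boars with the lowest shares are the least certain. Whether the part goes with the share of *Streptococcus* was not tested.

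*Lactobacillus_ultunensis* made up a part of its genus that differed widely between boars. The species was first described from human stomach mucosa, and its name here is the closest one that the classification gave to a partial 16S sequence. It held 0.0187% (boar 3) to 2.08% (boar 5) of all sequences in AOS10, with a median of 0.5681%. In CON it held 0 (boar 4) to 2.37% (boar 2), with a median of 0.0602%. The CON median was thus exceeded in 8 of the 10 AOS10 boars, and the groups overlapped. The means were 0.630% ± 0.652 in AOS10 and 0.804% ± 1.02 in CON (SD, n = 10 and 9), a ratio of 0.784 (exact permutation p = 0.658, adjusted p = 0.792). The mean of CON rested on boars 2, 9 and 10, at 2.37%, 2.24% and 1.65%, and the ratio was 1.04 without boar 2, 1.01 without boar 9 and 0.903 without boar 10. Of the 13 species tested, 0% passed the exact permutation test at an adjusted and 0% at an unadjusted p under 0.05, and limma gave 0 of 13 by either.

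Within the genus, *Lactobacillus_ultunensis* made up 7.41% (boar 10) to 83.1% (boar 6) in AOS10, with a median of 44.6%. In CON it made up 0% (boar 4) to 90.8% (boar 9), with a median of 20.4%. It held over 50% of the lactobacilli in 5 AOS10 boars (2, 5, 6, 7 and 9) and 3 CON boars (3, 9 and 10). Among the boars with more *Lactobacillus* than *Streptococcus*, it held 54.0%, 81.2% and 67.4% in AOS10 boars 5, 7 and 9, and 25.2%, 90.8% and 87.6% in CON boars 2, 9 and 10. CON boar 2 therefore carried mostly other lactobacilli, at 7.035% of all sequences, against at most 0.470% in the other CON boars. The mean part was 46.2% ± 28.2 in AOS10 and 36.1% ± 35.9 in CON (SD, n = 10 and 9; difference 10.1 percentage points, exact permutation p = 0.4932, adjusted p = 0.765).

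The split of the class between its genera did not differ beyond the spread between boars either. *Streptococcus* held 69.4% ± 32.6 of *Bacilli* in AOS10 and 64.5% ± 45.4 in CON (SD, n = 10 and 9; exact permutation p = 0.765). *Lactobacillus* held 29.4% ± 32.7 in AOS10 and 35.1% ± 45.2 in CON (SD, n = 10 and 9; exact permutation p = 0.732, adjusted p = 0.765 for both). The medians ran the other way, with 85.3% *Streptococcus* in AOS10 and 94.7% in CON. They also did so for *Lactobacillus*, at 10.4% in AOS10 and 5.24% in CON. When the shares were summed over the boars of a group first, *Streptococcus* held 83.0% of *Bacilli* in AOS10 and 83.2% in CON.

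**Figure D3:**
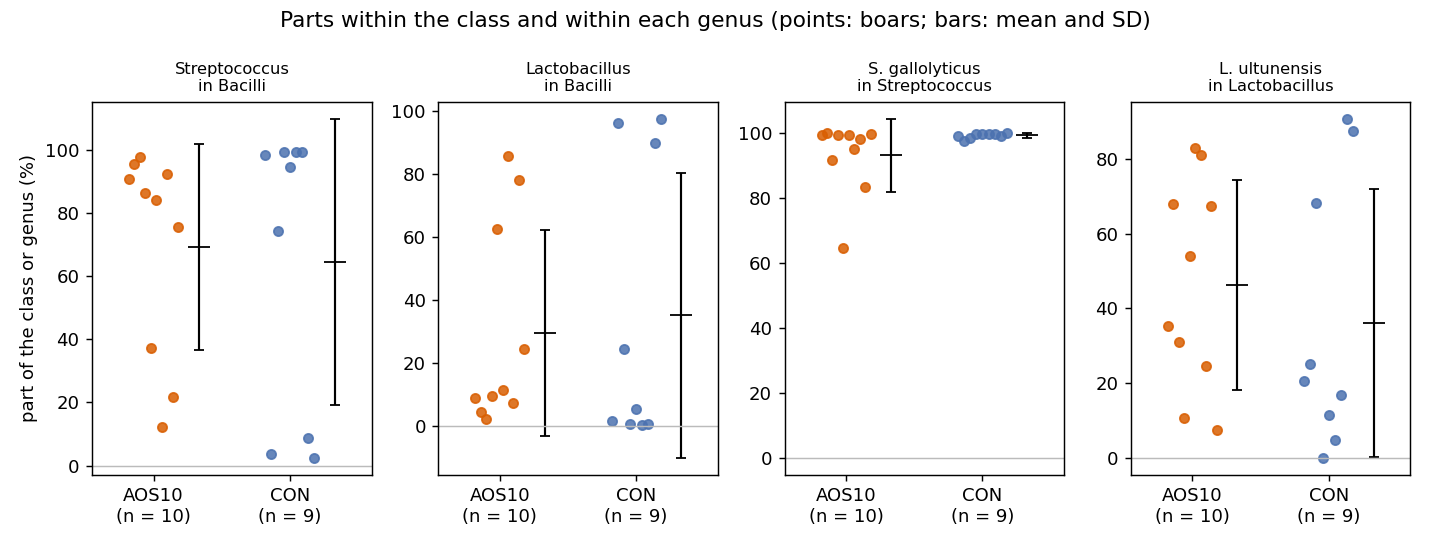
Part of the class or genus (%, vertical axis) held by *Streptococcus* and *Lactobacillus* in *Bacilli*, by *Streptococcus_gallolyticus* in *Streptococcus* and by *Lactobacillus_ultunensis* in *Lactobacillus*, with AOS10 boars on the left and CON boars on the right of each panel. Points are boars, and the mark with its bar is the mean with 1 SD, which can pass 0 or 100. For *Streptococcus_gallolyticus* AOS10 boar 5 lies at 64.4% and all CON boars at 97.4% or more, and for the 2 genera CON boars lie at both ends.

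The coefficient between *Streptococcus* and *Lactobacillus* was close to 0 among AOS10 boars and strongly negative among CON boars. In AOS10 Spearman's rho was -0.09 (n = 10, permutation p = 0.811) and Pearson's r was -0.07 (permutation p = 0.795). Without AOS10 boars 1 and 2, the farthest from the median *Streptococcus* share, r was -0.12 (exact permutation p = 0.743). Here boars 1, 2 and 6 had 11.4%, 23.6% and 8.86% *Streptococcus* and still 1.12%, 1.12% and 1.199% *Lactobacillus*, and boar 3 was low in both, at 2.603% and 0.0602%. In that boar *Murdochiella*, an anaerobic coccus, held 54.4% of all sequences. In CON rho was -0.80 (n = 9, exact permutation p = 0.0138) and r was -0.58 (exact permutation p = 0.106). CON boars 10, 9 and 2 had the fewest streptococci and the most lactobacilli. CON boars 7, 8 and 4, with 13.4%, 12.3% and 26.1% *Streptococcus*, had 0.0504%, 0.0529% and 0.152% *Lactobacillus*. Without CON boars 4 and 10 r was -0.72 (exact permutation p = 0.00258).

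After adjustment over the 8 relations computed (4 pairs of taxa in 2 groups), the CON relation had an adjusted p of 0.111 for rho and 0.281 for r. It therefore did not pass by itself. Over all 19 boars, with the group means taken from the ranks and boars permuted within groups, rho was -0.63 (permutation p = 0.0105, adjusted p = 0.0303 over the 4 pairs). Within the groups rho was -0.09 in AOS10 and -0.80 in CON, so the value over both does not describe each group. Without CON boar 4, 7, 9 or 10 the adjusted p over both groups was over 0.05, at 0.0895 or less, and rho was between -0.61 and -0.57. Without any single AOS10 boar it stayed under 0.05. The relation over both groups had an adjusted p of 0.0762 when each genus was given as a share of the sequences outside the other (rho = -0.58). The difference in rho between the groups was 0.71, AOS10 minus CON (exact permutation p = 0.0364 over the splits of the boars, adjusted p = 0.146 over 4 pairs), so that a difference in this relation between the diets was not shown after adjustment.

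**Figure D4:**
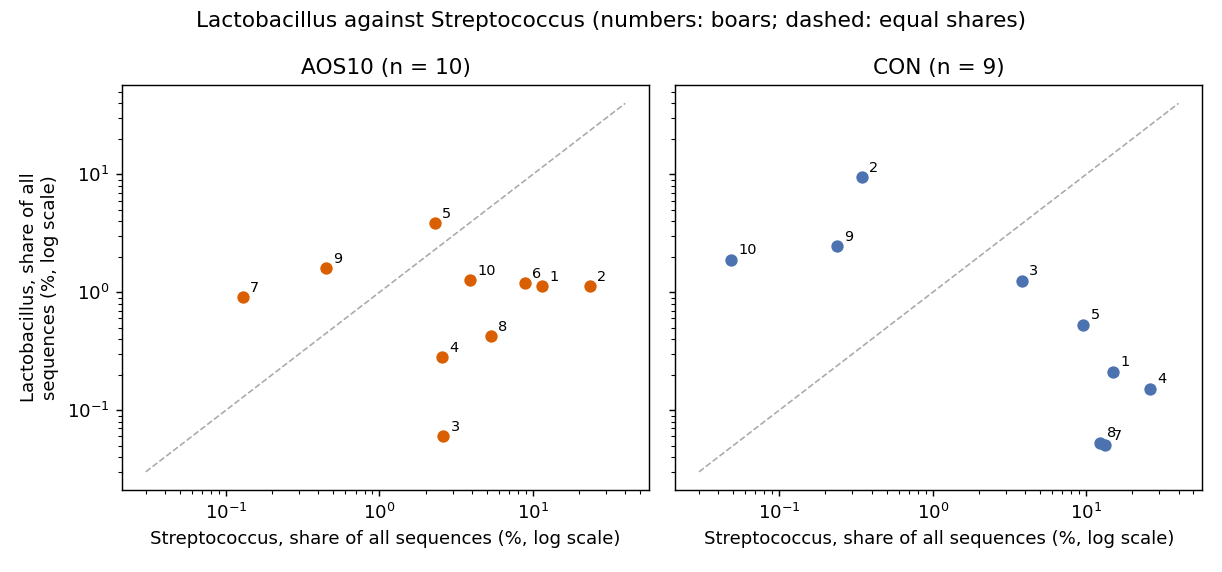
*Lactobacillus* (vertical axis) against *Streptococcus* (horizontal axis), both as a share of all sequences (%, log scales), with AOS10 boars on the left and CON boars on the right. Each point is a boar with its number and the dashed line marks equal shares. AOS10 boars 1, 2 and 6 have *Lactobacillus* at 1.12% to 1.199% beside many streptococci (rho = -0.09 over the group), while CON boars fall along a descending line (rho = -0.80).

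*Clostridia* held far more of the sequences than *Bacilli* and varied less between boars. They ranged from 55.3% (boar 2) to 81.3% (boar 3) in AOS10, with a median of 69.6%. In CON they ranged from 46.0% (boar 2) to 83.1% (boar 10), with a median of 68.0%. The means were 69.5% ± 7.92 in AOS10 and 67.3% ± 11.5 in CON (SD, n = 10 and 9; exact permutation p = 0.632, adjusted p = 0.780). Together the 2 classes held 66.6% to 85.6% of the sequences in AOS10 boars and 55.8% to 87.7% in CON boars, the lowest in CON boar 2, where *Bacteroidia* held 31.3%. In AOS10 boar 3 the *Clostridia* outside *Murdochiella* came to 26.9%.

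*Bacilli* and *Clostridia* had negative coefficients in both groups. Spearman's coefficient was -0.47 in AOS10 (n = 10, permutation p = 0.178) and r was -0.65 (permutation p = 0.0368). In CON rho was -0.62 (n = 9, exact permutation p = 0.0857) and r was -0.46 (exact permutation p = 0.211). None passed adjustment over the 8 relations (adjusted p = 0.305 for both rho, 0.278 and 0.281 for r). Without the 2 boars farthest from the median *Bacilli* share, r was 0.12 in AOS10 (boars 1 and 2 left out, exact permutation p = 0.787) and -0.32 in CON (boars 4 and 10 left out, exact permutation p = 0.490), so the AOS10 relation rested on boars 1 and 2. When each CON boar was left out in turn, rho in CON was between -0.86 and -0.45. The value furthest from 0 came without boar 2 (exact permutation p = 0.0107, adjusted p = 0.0553). Over all 19 boars with group means removed, rho was -0.57 (permutation p = 0.0151, adjusted p = 0.0303). Shares of 1 total have to make room for each other. When *Clostridia* were given as a percentage of the sequences outside *Bacilli*, this rho was -0.02 (permutation p = 0.951), and it was 0.18 in AOS10 and -0.03 in CON. The call over both groups was also lost without AOS10 boar 1, 2 or 3 or CON boar 4, 7, 9 or 10, where rho was between -0.55 and -0.49.

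The genera were also set against *Clostridia* one by one. For *Streptococcus* rho was -0.21 in AOS10 (permutation p = 0.559) and -0.55 in CON (exact permutation p = 0.133). Its r was -0.59 in AOS10 (permutation p = 0.0696) and -0.22 in CON (exact permutation p = 0.575), and without the 2 farthest boars r was 0.41 in AOS10 and 0.13 in CON. With single CON boars left out, rho in CON was between -0.86 (without boar 2, exact permutation p = 0.0107, adjusted p = 0.0553) and -0.36. With *Clostridia* counted outside *Bacilli*, rho was 0.45 in AOS10 and 0 in CON. Its sign in AOS10 thus depended on the denominator.

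For *Lactobacillus* rho with *Clostridia* was -0.45 in AOS10 (permutation p = 0.191) and 0.25 in CON (exact permutation p = 0.521), opposite signs whose difference did not pass its test (-0.70, AOS10 minus CON, exact permutation p = 0.213, adjusted p = 0.426). Without CON boar 2 that difference was -1.24 (exact permutation p = 0.0242, adjusted p = 0.0969). Within CON rho was between 0.12 and 0.79 with single boars left out. The highest came without boar 2 (exact permutation p = 0.0279, adjusted p = 0.112). Pearson's r was -0.45 in AOS10 (permutation p = 0.193) and -0.52 in CON (exact permutation p = 0.165). In CON the negative r rested on boar 2, which had the most lactobacilli and the fewest *Clostridia*. Without boars 2 and 9, the farthest from the median, r was 0.69 in CON (exact permutation p = 0.0938), and without AOS10 boars 3 and 5 it was -0.34 in AOS10 (exact permutation p = 0.409). In AOS10 rho was 0.03 with *Murdochiella* left out of the sequences, and -0.25 with boar 3 left out. With all boars kept, the adjusted p was 0.281 for both r and 0.305 or more for both rho.

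**Figure D5:**
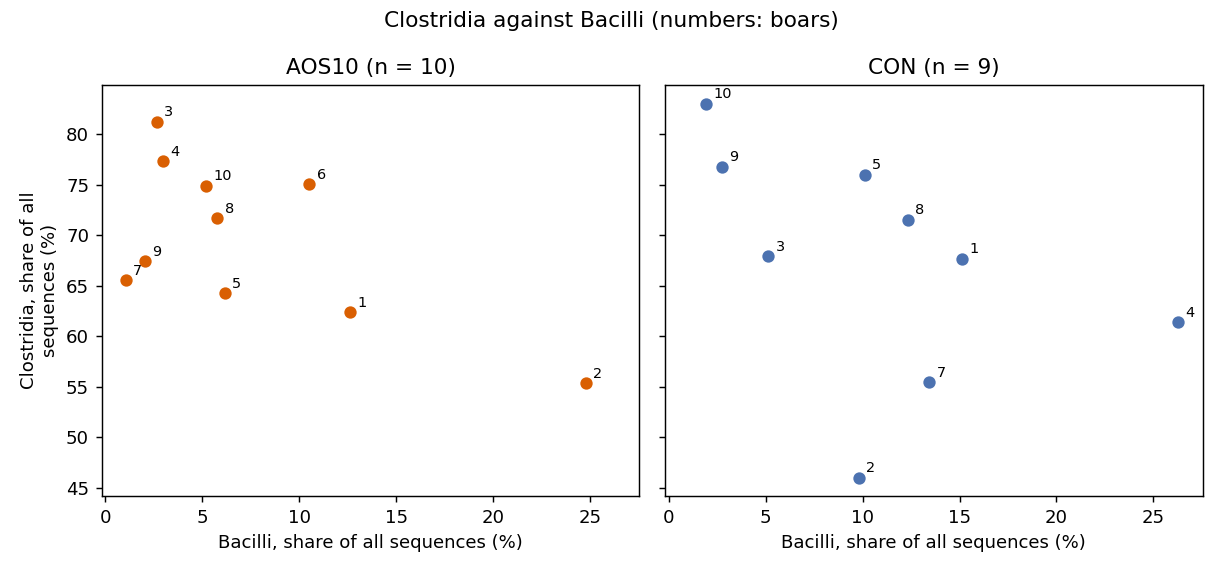
*Clostridia* (vertical axis) against *Bacilli* (horizontal axis), both as a share of all sequences (%), with AOS10 boars on the left and CON boars on the right. Each point is a boar with its number. AOS10 boars 1 and 2 lie at high *Bacilli* (12.6% and 24.8%) and low *Clostridia*, and CON boar 2 has the lowest *Clostridia* at 46.0%.

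Few of the other genera looked for as makers or users of lactate are listed, and the lists do not cover every genus that forms or uses it. Of 7 other lactate and acetate producers looked for, the genus table holds *Bifidobacterium*, which forms acetate and lactate from sugars. It held 2.44% ± 2.40 in AOS10 and 1.19% ± 1.79 in CON (SD, n = 10 and 9; exact permutation p = 0.216, adjusted p = 0.460). Of 7 genera with lactate-using members, it holds *Eubacterium* and *Coprococcus*, both with butyrate-forming species. *Eubacterium* held 2.49% ± 1.43 in AOS10 and 2.85% ± 1.16 in CON (SD, n = 10 and 9; exact permutation p = 0.565), and *Coprococcus* 1.07% ± 0.681 in AOS10 and 0.584% ± 0.215 in CON (SD, n = 10 and 9; exact permutation p = 0.0546, adjusted p = 0.447). None of the 3 genera passed adjustment. By mean share, most of *Eubacterium* carried the name *Eubacterium_coprostanoligenes*, at 2.16% in AOS10 and 2.57% in CON. Most of *Coprococcus* carried the name *Coprococcus_comes*, at 0.929% in AOS10 and 0.521% in CON. Whether these species use lactate or form butyrate was not tested.

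Of the 17 other genera compared, *Bifidobacterium* had the pattern most like that of *Lactobacillus*, with a rho of 0.61 over the 19 boars after removal of the group means (0.41 within AOS10 and 0.77 within CON). *Intestinimonas*, a butyrate producer, followed with 0.33 (0.60 within AOS10 and 0.03 within CON). Over both groups the pattern least like *Lactobacillus* was that of *Streptococcus*, at -0.63 (-0.09 within AOS10 and -0.80 within CON). Within AOS10 alone *Barnesiella* had the lowest coefficient with *Lactobacillus*, at -0.36. For *Streptococcus* the most alike were *Clostridium_XlVa* at 0.33 (-0.05 within AOS10 and 0.42 within CON) and *Clostridium_sensu_stricto* at 0.25 (-0.01 within AOS10 and 0.52 within CON). The least alike over both groups was *Lactobacillus*. Within AOS10 alone it was *Escherichia*, at -0.33, and within CON alone *Bifidobacterium*, at -0.87. In AOS10 boars 5 and 7 *Lactobacillus* stood beside 6.48% and 5.93% *Bifidobacterium*, and in CON boars 9 and 10 beside 5.22% and 3.10%. It was lower in AOS10 boars 9 and 10, at 1.16% and 0.0156%, and in CON boar 2, the boar with the most lactobacilli, at 0.506%. These coefficients describe the boars and were chosen as the highest and lowest of the 17, and all genera share the same total.

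The spread between animals was also set beside that of the other genera. The standard deviation of *Lactobacillus* was 89.3% of its mean in AOS10, the 9th highest of the 18 genera, and 168% in CON, the highest there. For *Streptococcus* it was 116% of the mean in AOS10, the 2nd highest, and 97.9% in CON, the 5th highest.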

How the data were processed

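Fecal samples of 10 AOS10 and 9 CON boars were analysed. The authors sequenced 16S rRNA gene amplicons (region V3-V4), merged the reads (FLASH), removed low-quality and chimeric sequences (QIIME), grouped sequences over 97% similar into operational taxonomic units, classified them with Greengenes and scaled all samples to the one with fewest sequences. What they deposited are fractions of a boar's sequences, in 6 stacked tables. All 19 columns matched a sample by title. Fractions were turned into percent here. The lowest non-zero value of a boar was 0.00208% to 0.00456% in AOS10 and 0.00220% to 0.00240% in CON. It differed between boars, so the fractions need not rest on an equal number of sequences, although the methods describe scaling to the smallest sample.

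Taxa above 0 in at least 5 boars were tested. Coefficients were tested by permuting the pairing, exactly for under 10 boars and with 100000 resamples otherwise. Alternatives used medians, ranks, log2(percent + 0.01), other pseudocounts (0.001 and 0.1), limma 3.58.1 (R 4.3.3), other denominators, pairing by boar number and the omission of each boar. The coefficients over both groups with other denominators or without a boar, and the differences in rho without a boar, were added after seeing the data. The steps were tested on simulated data. The software was pandas 2.3.3, scipy 1.17.1 and numpy 2.4.6 under Python 3.11.15. The comparison of means replaces the parametric test of the methods by an exact one. The members, lists and tests were chosen with earlier results of these data known. The text names the members, all listed taxa of their lineage, *Clostridia*, the listed members of 2 lists of lactate-related genera, and the genera most and least alike. The main listed species of *Eubacterium* and *Coprococcus* were added after seeing the data. CON boar 2 (*Bacteroidia*), AOS10 boar 3 (*Murdochiella*) and other single values were named after they were seen.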

Additional observations from a re-analysis of the deposited data

Results flagged for a closer look

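In 7 of 20 sets of values (10 measures in 2 groups) 1 boar stood apart, with a gap to its nearest neighbour that was a larger part of the group's range than Dixon's limit allows. For normally distributed values chance alone does so in about 1 of 20 groups. Many of the values here are skewed, so 7 of 20 cannot be set against that rate. The measures are also nested, so they are not separate events. AOS10 boar 2 was the highest of its group for *Bacilli* (24.8%, the next boar at 12.6%, gap 0.513 of the range), *Streptococcus* (gap 0.519) and *Streptococcus_gallolyticus* (gap 0.521). AOS10 boar 5 was the highest for *Lactobacillus* (3.86%, the next at 1.598%, gap 0.595) and *Lactobacillus_ultunensis* (2.08%, the next at 1.08%, gap 0.487). The same boar had the lowest part of *Streptococcus_gallolyticus* in its genus (64.4%, the next at 83.4%, gap 0.537). CON boar 2 was the highest for *Lactobacillus* (9.41%, the next at 2.47%, gap 0.742). It was also the CON boar with the highest *Bacteroidia*, at 31.3%.

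The relation between *Streptococcus* and *Lactobacillus* differed between the groups at an unadjusted p under 0.05. The difference in Spearman's rho, AOS10 minus CON, was 0.71 (exact permutation p = 0.0364, adjusted p = 0.146). It was between 0.52 and 0.93 when each boar was left out in turn, with exact permutation p between 0.0176 and 0.125.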

How the results depend on the processing

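Of 110 other settings over 25 results, leave-one-out aside, 75 kept direction and side of the threshold and 35 did not. The 25 results include the differences in rho, which had none of these settings and were tried only with boars left out. No share or part passed adjustment under any of the 110, and the cause of each change was not tested. AOS10 over CON, which was below 1 for means, was 2.11 for *Lactobacillus* by medians, 1.46, 1.50 and 1.26 by log2 values with pseudocounts 0.01, 0.001 and 0.1, and 9.44, 1.92, 2.93 and 1.201 for *Lactobacillus_ultunensis* by the same 4. The mean rank was 1.06 higher in AOS10 for both. *Streptococcus* gave 1.04 and 1.05 (pseudocounts 0.01 and 0.001). The limma log2 fold changes were 0.0535 for *Streptococcus*, 0.55 for *Lactobacillus* and 0.94 for *Lactobacillus_ultunensis*. The *Streptococcus* part of *Bacilli* differed by -9.42 points in medians, -1.27 in mean rank and -0.228 points in summed shares, and the *Lactobacillus* part by 5.15 points in medians and 1.48 in mean rank. Leaving out each boar, the ratio was 0.499 to 1.43 for *Lactobacillus* and 0.583 to 1.04 for *Lactobacillus_ultunensis*, and the parts differed by -2.85 to 11.3 (*Streptococcus*) and -11.9 to 2.15 points (*Lactobacillus*). With *Clostridia* taken as a share of the sequences outside *Bacilli*, rho with them was 0.45 for *Streptococcus* and 0.18 for *Bacilli* in AOS10, and -0.13 for *Lactobacillus* in CON, where Pearson's r on log2 values was -0.0842. Outside *Murdochiella*, *Lactobacillus* with *Clostridia* gave 0.0303 in AOS10. Over both groups rho was -0.63 for the 2 genera (-0.09 within AOS10 and -0.80 within CON) and -0.57 for *Bacilli* with *Clostridia*, past the threshold unlike either group alone. It was -0.0319 for *Lactobacillus* with *Clostridia*. Alternatives to these coefficients over both groups were chosen after seeing the data. They gave -0.58 for the 2 genera, each outside the other, and -0.0160 for *Bacilli* with *Clostridia* outside *Bacilli*, which ended both calls, and 0.17 for *Streptococcus* with these *Clostridia*. Outside *Murdochiella* they gave -0.54 for *Bacilli*, which ended the call, and 0.15 for *Lactobacillus*. Without each boar they were -0.71 to -0.57 (2 genera), -0.57 to -0.23 (*Streptococcus* with *Clostridia*, adjusted p = 0.0282 by permutation without CON boar 2), -0.17 to 0.16 (*Lactobacillus*) and -0.66 to -0.49 (*Bacilli*). Within AOS10 they were -0.28 to 0.13 (2 genera) and -0.35 to 0.0833 (*Streptococcus* with *Clostridia*). The difference in rho of *Bacilli* with *Clostridia* was -0.0167 to 0.39.

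Boars with the same number are separate animals, and 4 of 9 such pairs deviated together (r over 0.1, range -0.43 to 0.49). With the number as a replicate block, the *Bacilli* ratio was 0.653 (exact permutation p = 0.324), and no share or part changed its call. The number of sequences, not worked out here, limits the lowest shares most, and with them the parts that rest on them. Among them are *Streptococcus* in CON boar 10 and AOS10 boar 7, and *Lactobacillus_ultunensis* in CON boars 4, 7 and 8. Species names rest on a partial gene, so sequences of related species may share a name. Labelled age and diet cannot be told apart.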

Other observations

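*Streptococcus* and *Bifidobacterium*, both makers of lactate, had a rho of -0.45 over the 19 boars with group means removed, -0.09 within AOS10 and -0.87 within CON. In CON this value was further from 0 than that of *Streptococcus* with *Lactobacillus*, -0.80. It was taken from the list of 17 genera after the values were seen and has no test.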
